A study of Danio rerio with 2 samples.

Results

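The genes described here encode translation initiation and elongation factors, the proteins that start protein synthesis on a messenger RNA (mRNA) and then move the ribosome along it. They were all gene IDs present in both count tables whose zebrafish symbol began with eif or eef, without the eif2ak kinases, and with at least 50 counts in a heart. That gave 50 members of 14452 IDs in both tables, out of 64 candidates in both and 70 in either. Of the 50 members, 44 reached 50 counts in the 7 dpi heart and 48 in the 3 dpi heart, where dpi means days post injury. The members just inside the limit were EIF4A2 with 22 counts at 7 dpi and 57 at 3 dpi, EEF1E1 with 60 and 47, and eif4ba with 48 and 66. Those just outside were EIF3E with 8 counts at 7 dpi and 47 at 3 dpi, eif4enif1 with 29 and 43, and EIF3D with 27 and 39. The files gave no genome positions for these IDs.

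The samples were 1 cryoinjured adult zebrafish ventricle taken 7 days after the injury and 1 taken 3 days after it, both marked WT in their titles. Cryoinjury kills part of the ventricle by freezing, and zebrafish regrow heart muscle after it. Each ventricle was cut into 12 µm cryosections, starting at the injured area and moving toward remote muscle that was not injured, and the mRNA of each section was barcoded and sequenced by CEL-seq, a method that reads the ends of transcripts from small samples. No uninjured heart was among the samples used here, and nothing in the labels pooled animals.

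Initiation begins when Eif2 brings the initiator transfer RNA (tRNA) to the small ribosomal subunit, where Eif1, Eif1a, Eif3 and Eif5 hold it until a start codon is met. The mRNA is brought in through its cap by Eif4e, the scaffold Eif4g and the helicase Eif4a, and Eif4e-binding proteins block that step when the kinase mTOR is inactive. In elongation, Eef1a delivers each charged tRNA, the Eef1b, Eef1d and Eef1g complex reloads Eef1a with GTP, and Eef2 moves the ribosome on by a codon. Adult muscle and nerve of mammals are known to replace general Eef1a by a second form, Eef1a2.

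The 7 dpi heart had 38 sections, of which 24 were kept with 20832 to 813848 counts each, and the 3 dpi heart had 40, of which 35 were kept with 39495 to 302404. Section 34 alone held 25.5% of the kept counts at 7 dpi. The kept sections were divided into an injury-side, a middle and a remote-side domain, which ran over sections 1 to 7, 8 to 21 and 22 to 34 at 7 dpi and over sections 1 to 10, 11 to 20 and 21 to 40 at 3 dpi. At 7 dpi section 3 held 40.1% of the injury-side counts and section 34 held 42.8% of the remote-side ones. Domain levels and folds come from summed counts, so at 7 dpi these sections weigh most in them, and means over sections can differ. Contractile genes marked the remote side. At 7 dpi their summed level was 228 to 548 CPM (counts scaled to a common total of 1e+06 per library) in the 5 injury-side sections, 96 to 5340 in the 12 middle ones and 10900 to 68100 in the 7 remote-side ones, and 21 of the 22 measured genes were lower by 2-fold or more toward the injury, with TNNT2, TNNC1, MYH6 and MYBPC3 among the 12 at 0 counts on that side. At 3 dpi the sum was 3130 to 23900 CPM in 5 injury-side sections, 33500 to 62600 in 10 middle ones and 58900 to 92700 in 20 remote-side ones, with 19 of 21 genes lower and none at 0. Leukocyte genes ran the other way, with 11 of 16 higher by 2-fold or more toward the injury at 7 dpi and 15 of 15 at 3 dpi. With 1 heart per day there is no replicate error and no test, sections of a heart are not replicates, and a 2-fold difference in CPM is used as a rule of size. Ranges that follow a fold or a share are exact 95% intervals of the counts (Poisson for folds, Clopper-Pearson for shares), which cover counting error only, since reads that carry no stated molecular identifier may copy the same molecule.

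The ratio of EEF2 to eef1a1l1 counts differed along both hearts. EEF2 (ENSDARG00000035256), the only Eef2 ID among the members, was lower on the injury side of both hearts. The general Eef1a gene, eef1a1l1, stood at much the same level on both sides. Eef2 transcripts counted under an ID without an eef2 symbol would not be seen here. A count of 0 for EEF2 therefore does not mean that Eef2 was absent. In the 7 dpi heart EEF2 had 0 CPM in each of the 5 injury-side sections, 0 to 113 CPM over the 12 middle sections, and 29.3 to 262 CPM (median 148) over the 7 remote-side sections. Injury-side and remote-side sections did not overlap. How many of all genes show the same was not counted. The injury side held 0 counts of EEF2, against 313 on the remote side, which puts it lower by at least 10.9-fold, taking a floor of 3 counts over the domain, or by at least 6.12-fold without section 34, which leaves 100 remote-side counts. The exact intervals of the counts start at 8.85-fold and, without that section, at 4.88-fold. When sections down to 5% were kept, and the division into domains was run again on them, the fitted log2 difference of -7.37 came to -2.47. In the 3 dpi heart EEF2 had 75.1, 235, 170, 108 and 239 CPM in the injury-side sections, 173 to 520 CPM (median 324) in the middle sections and 203 to 660 CPM (median 434) in the remote-side ones. The injury-side level was 2.59-fold lower (1.93 to 3.56) than the remote-side one, and 2 of the 5 injury-side sections lay inside the remote-side range. With domains of equal section number the 3 dpi log2 difference, -1.37, came to -0.58.

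The other factor of the pair, eef1a1l1, had 2630, 3890, 4750, 2220 and 1740 CPM in the injury-side sections at 7 dpi, against 2080 to 4530 CPM on the remote side. It had 11400, 8850, 7930, 9620 and 11100 CPM in those at 3 dpi, against 6320 to 10000 CPM on the remote side. Its injury-side level was 1.18-fold the remote-side one (1.09 to 1.28) at 7 dpi and 1.21-fold (1.16 to 1.26) at 3 dpi. Median-of-ratios scaling sets libraries equal on the typical gene among those with counts in every domain. Under it the log2 differences of 0.24 and 0.27 turned to -0.01 and -0.60. It did not level the median of all measured genes, which was then -0.46 at 7 dpi and -0.31 at 3 dpi.

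A share within the pair does not depend on how libraries are scaled. EEF2 made up 0% of the EEF2 and eef1a1l1 counts on the injury side at 7 dpi (0 of 687, exact interval 0 to 0.536, where a floor of 3 counts is 0.437%), 0.85% (0.574 to 1.21) in the middle sections and 5.36% (4.79 to 5.96) in the remote-side ones. At 3 dpi the share was 1.78% (1.31 to 2.37) on the injury side, 3.66% (3.28 to 4.06) in the middle sections and 5.37% (5.08 to 5.67) in the remote-side ones. The remote-side shares of the hearts lay within counting error of each other only with section 34 of the 7 dpi heart, without which its remote-side share was 2.59% (2.11 to 3.14). This share was chosen after values had been seen. In the 7 dpi heart 62.1% of EEF2 counts came from section 34, where the share was 10.7% (9.42 to 12.2), and without that section the injury side was 2.59 percentage points below the remote side, against 5.36 with it.

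**Figure D1:**
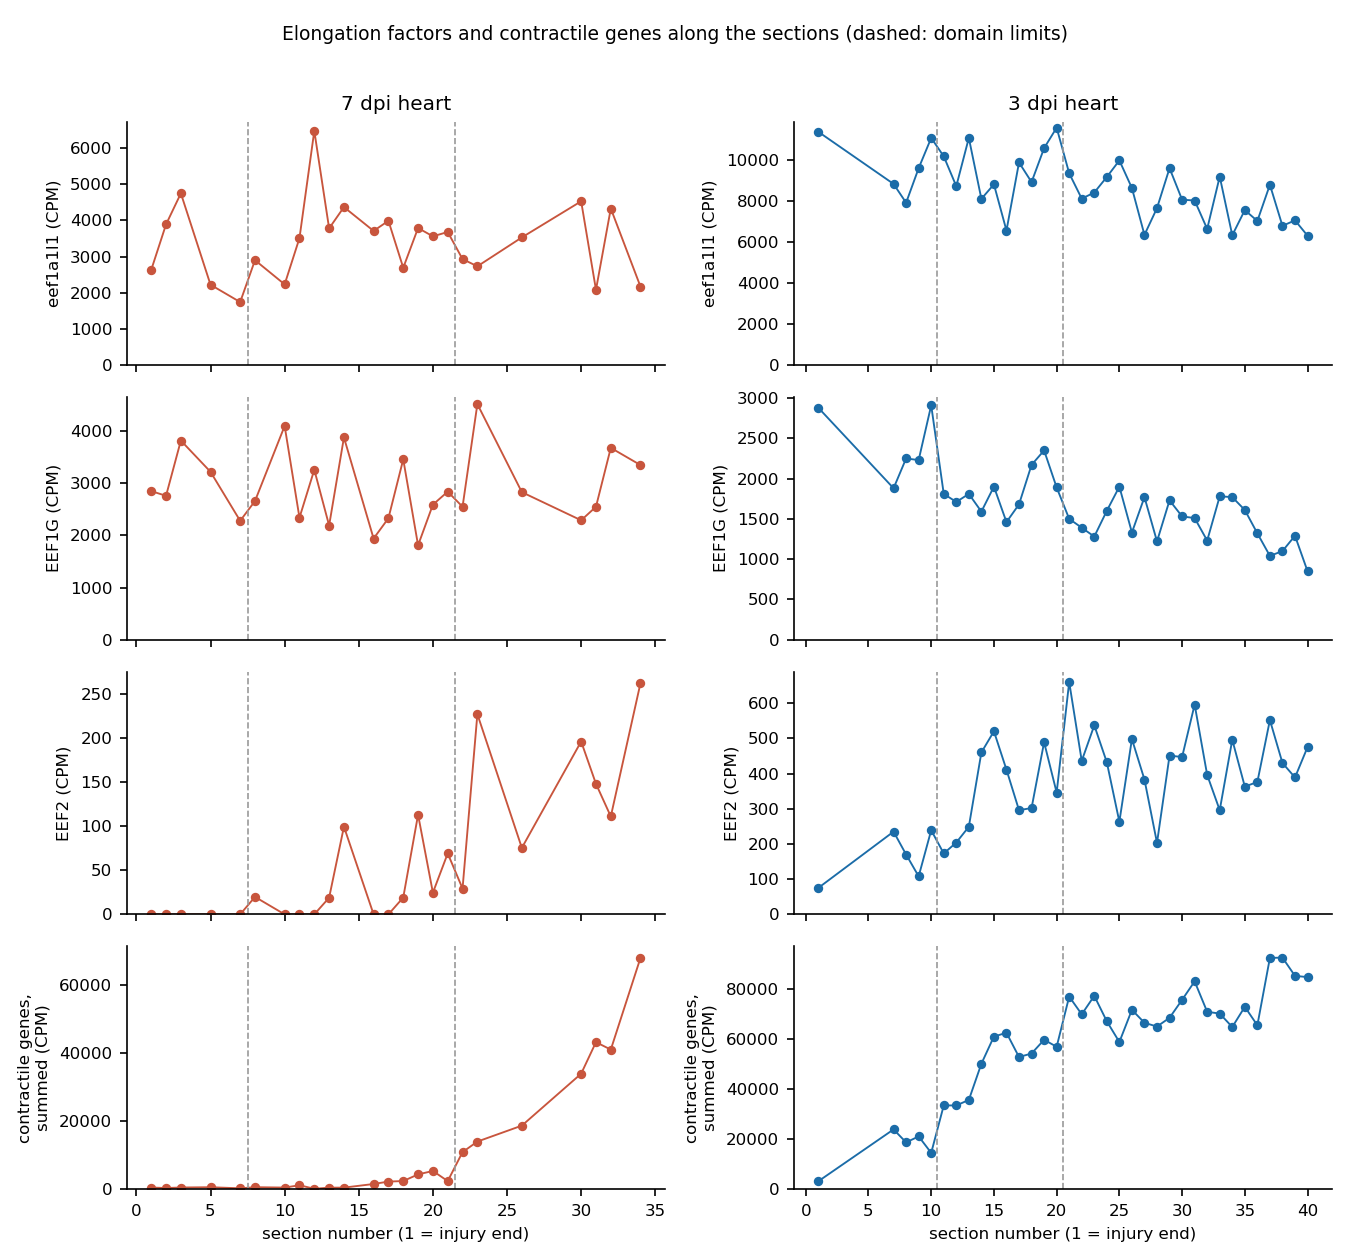
Level of eef1a1l1, EEF1G and EEF2 and the summed level of contractile genes (CPM, linear axes from 0) in each kept section of the 7 dpi heart (left) and the 3 dpi heart (right), by section number from the injury end, with dashed lines at the domain limits. EEF2 is at 0 in all injury-side sections at 7 dpi and is higher where the contractile sum is higher in both hearts, while eef1a1l1 is not.

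Across the kept sections, EEF2 followed the summed contractile genes with a Pearson r of 0.80 and a Spearman rho of 0.77 at 7 dpi (24 sections), and with an r of 0.79 and a rho of 0.71 at 3 dpi (35 sections). Among measured members these rho values were the highest in each heart. Sections of a heart share their library preparation, neighbours share tissue and a CPM has all genes in its total, so these correlations are a description. The contractile sum was lower in the same sections, and its part in the EEF2 result was not tested. In tissue sections, fewer cells of a type and less RNA per cell cannot be told apart.

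The comparison of muscle-type with general Eef1a could not be made from these counts. The muscle-type gene, eef1a2, had 1 count at 3 dpi, in the middle domain, of 32593 counts of all Eef1a genes (0.00307%, 7.77e-05 to 0.0171), and it had no entry in the 7 dpi table. The remote-side sections of the 3 dpi heart held 0 of 21363 (exact interval 0 to 0.0173%, where a floor of 3 counts is 0.014%). The gene eef1a1l1 held 9717 of 9731 Eef1a counts at 7 dpi and 32586 of 32593 at 3 dpi, and both further IDs named EEF1A1 had 10 and 4 counts at 7 dpi and 2 and 4 at 3 dpi. Nerve and skeletal muscle genes, which mark other tissues that use Eef1a2, summed to 35.1 CPM at 7 dpi and 9.96 CPM at 3 dpi. A second Eef2 gene, eef2a.1, had 3 counts at 7 dpi and 12 at 3 dpi. How reads shared by near-identical copies were counted was not given in the sources used here, so levels of single Eef1a and Eef2 genes are uncertain to that extent.

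In the exchange complex that reloads Eef1a, EEF1G was near level between the sides at 7 dpi, and EEF1B2 and EEF1D were less than 2-fold apart. The measured members of this complex were higher in CPM toward the injury at 3 dpi, though under median-of-ratios scaling EEF1G and EEF1B2 were not. EEF1G, its structural subunit, had 2850, 2760, 3820, 3220 and 2280 CPM in the injury-side sections at 7 dpi, against 2290 to 4520 CPM on the remote side, a ratio of 0.995 (0.916 to 1.08). At 3 dpi it had 2880, 1880, 2250, 2230 and 2910 CPM on the injury side, against 850 to 1900 CPM on the remote side, and of the injury-side sections only section 7 lay within the remote-side range. The 3 dpi ratio was 1.72 (1.57 to 1.87), which turns to a log2 difference of -0.09 under median-of-ratios scaling. EEF1D, a nucleotide exchange subunit, was 1.28-fold (0.823 to 1.92) at 7 dpi and 2.48-fold (1.92 to 3.17) at 3 dpi. EEF1B2, the other exchange subunit, was 0.749-fold (0.597 to 0.93) at 7 dpi and 1.42-fold (1.21 to 1.67) at 3 dpi. EEF1E1, which in mammals sits in the complex of tRNA synthetases, had 2 counts on the injury side at 7 dpi and was 2.26-fold lower (0.588 to 19.2), a difference that counting error alone allows.

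EEF2K, the kinase that switches Eef2 off, was near the limit of detection. It had 34.2 CPM in 1 of 5 injury-side sections at 7 dpi and 0 in the others, and 26 counts in all there, under the minimum. At 3 dpi it had 25 CPM in section 1 and 0 in the other 4, against 0 to 44.7 CPM on the remote side (median 19.6), or 1 count against 67. The injury-side level was 6.59-fold lower (1.14 to 264) at 3 dpi, and the log2 difference, -2.44, was -0.38 when the 3 domains held equal numbers of sections and -0.45 when sections down to 5% were kept.

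As a group, no larger share of the members than of all genes passed the 2-fold limit. At 7 dpi 3 of 44 measured members (6.82%) were higher by 2-fold or more toward the injury, where 15.4% of all measured genes were, and 6 (13.6%) were lower by 2-fold or more, where 31.1% of all genes were. These 6 were EEF2, EIF2B4, eif4eb, EEF1E1, eif4ebp1 and EIF6, with 0, 1, 1, 2, 2 and 3 counts on the injury side. The exact intervals of all but EEF2 and eif4ebp1 hold 1. At 3 dpi 16 of 48 (33.3%) were higher, against 33.8% of all genes, and 4 (8.33%) were lower, against 15.8%. The share higher at 3 dpi thus lies at the background, and the other shares lie under it. The median member difference was -0.12 at 7 dpi, against -0.2 for all genes and 0.11 for genes of like level, and 0.53 at 3 dpi, against 0.54 and 0.79. The quartiles of the members were -0.59 and 0.3 at 7 dpi and 0.06 and 1.13 at 3 dpi, a narrower span than those of all genes, -1.39 and 0.61 at 7 dpi and -0.44 and 1.28 at 3 dpi.

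The sign of many 3 dpi values turned on the scaling. Median-of-ratios scaling lowered the injury-side to remote-side ratio by 0.26 (log2) at 7 dpi, which brought the all-gene median to -0.46, and by 0.87 at 3 dpi, which brought it to -0.31. Under it 5 of 44 members had the other sign at 7 dpi, and these were eef1a1l1, eif1axa, EIF3F, EIF3J (ENSDARG00000053370) and EIF4EBP2. At 3 dpi 20 of 48 had it, and these were eef1a1l1, EEF1B2, EEF1G, EIF1, eif1axb, EIF2S3B, EIF3CL, eif3ea, EIF3F, EIF3H, EIF3I, EIF3J (ENSDARG00000053370), EIF3M, EIF4B, EIF4EBP2, eif4ebp3, EIF4E2, EIF4E3, eif4eb and eif5a. The members higher by 2-fold or more on the injury side at 3 dpi then numbered 2 of 48, EIF4G1 and EIF5A2, where 10.8% of all genes were. Folds below are of CPM.

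**Figure D2:**
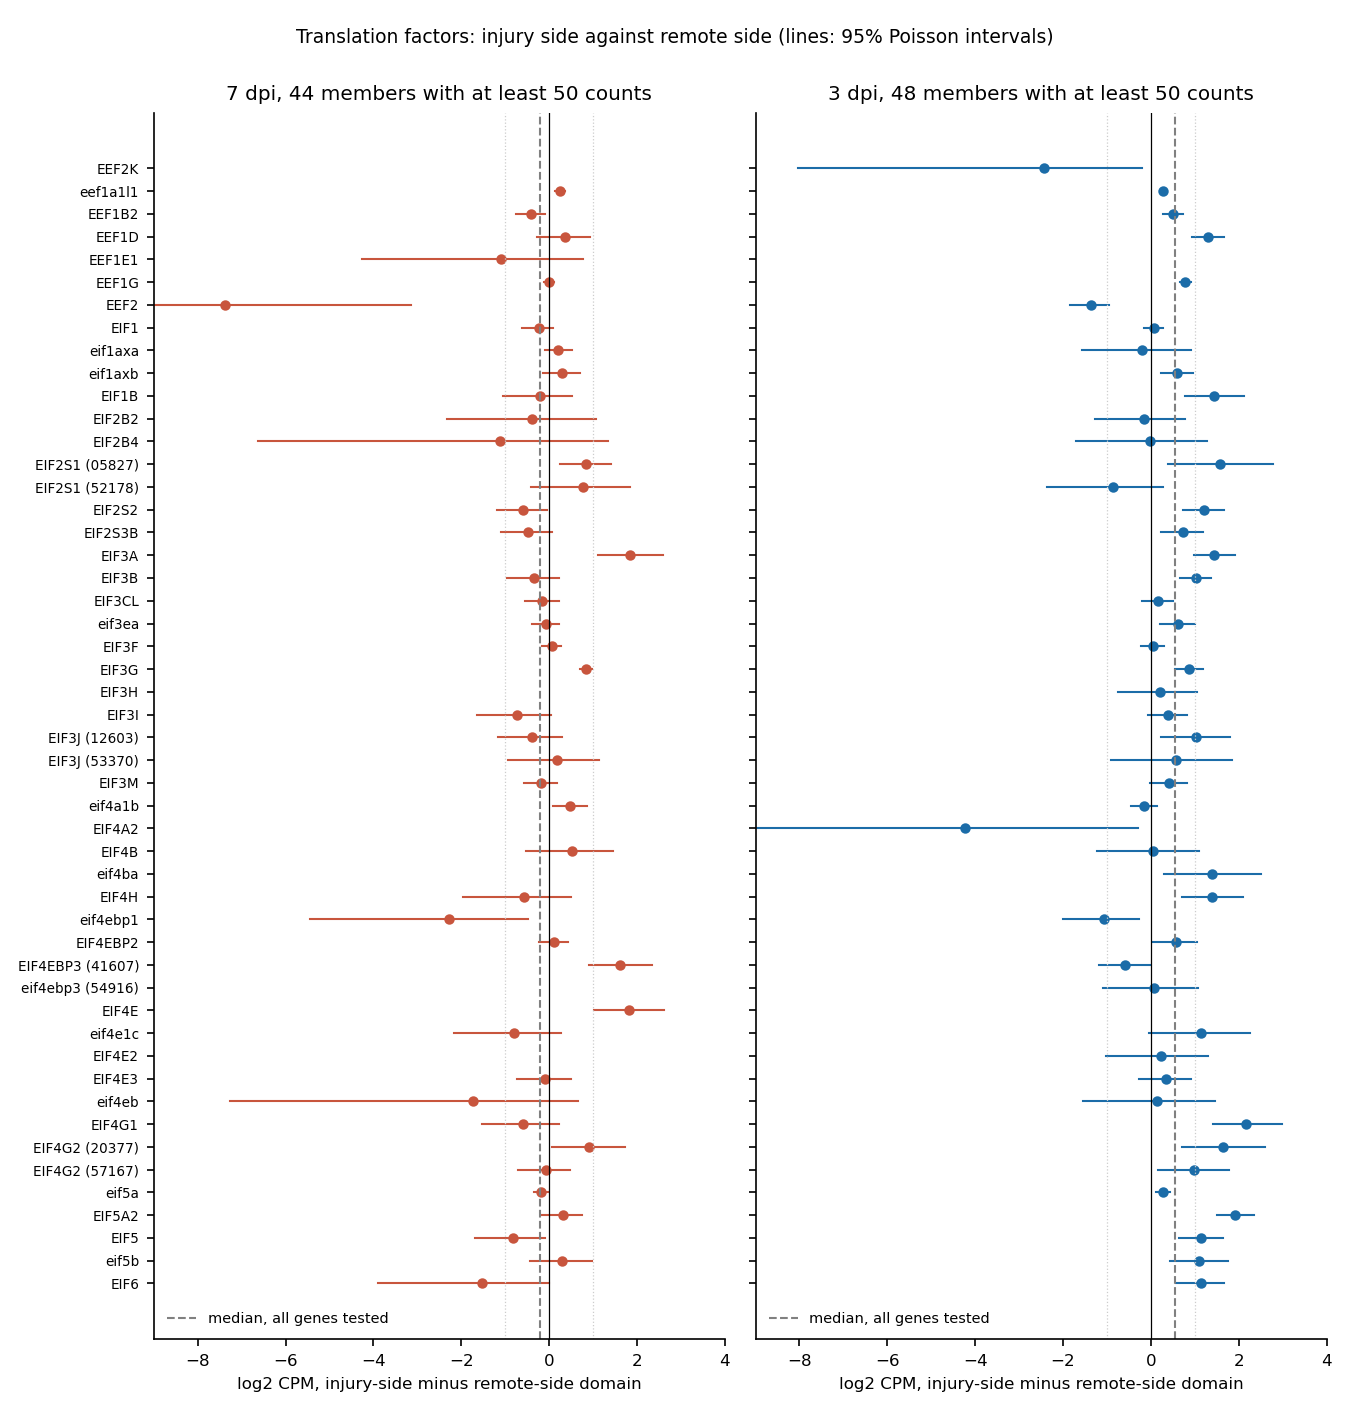
Injury-side minus remote-side difference of each measured member (points, log2 CPM with a pseudocount of 1) at 7 dpi (left, 44 members) and 3 dpi (right, 48 members), with exact 95% Poisson intervals of the ratio (lines, cut at the edge of the axis), the all-gene median (dashed) and the 2-fold limits (dotted). Most 3 dpi points lie right of 0 around the all-gene median of 0.54, most 7 dpi points lie near 0, and EEF2 is the member farthest to the left at 7 dpi.

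By domain, 16 of 44 members were highest on the injury side at 7 dpi, 13 in the middle sections and 15 in the remote-side ones, where the shares of all genes were 30.1%, 36.7% and 33.2%. At 3 dpi these were 32, 12 and 4 of 48 members, and 53.8%, 23.3% and 22.8% of all genes. A stepwise decline with distance from the injury was seen in 10 of 44 members at 7 dpi, where 21.4% of all genes had one, and in 28 of 48 at 3 dpi, where 44.1% had. The opposite order was seen in 11 of 44 members at 7 dpi, where 25.6% of all genes had it, and in 4 of 48 at 3 dpi, where 18.9% had. No member at 7 dpi was at least 2-fold above or below both other domains in the middle, where 5.23% of all genes were above and 1.8% below. At 3 dpi EIF4B, a cofactor of the Eif4a helicase, was the 1 member above both, with 30.2 CPM on the injury side, 62.7 CPM in the middle sections and 29.3 CPM in the remote-side ones, and none was below both, where 0.836% of all genes were above and 0.69% below.

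The Eif1 and Eif1a members other than EIF1B differed by less than 2-fold between the sides of both hearts. EIF1, which guards start-codon choice, had 371, 377 and 439 CPM in the injury-side, middle and remote-side domains at 7 dpi and 722, 790 and 690 CPM at 3 dpi. Its relative EIF1B had 80.2, 157 and 93.1 CPM at 7 dpi and 94.4, 58.5 and 34.2 CPM at 3 dpi. EIF1B was thus 2.76-fold higher (1.7 to 4.34) on the injury side at 3 dpi, and its share of EIF1B and EIF1 counts there was 11.6% (7.63 to 16.6), against 4.72% (3.82 to 5.75) on the remote side. Of the 4 members of this class, 0 were at least 2-fold apart at 7 dpi, where 15.4% of all genes were higher and 31.1% lower. At 3 dpi 1 of the 4 was, where 33.8% of all genes were higher and 15.8% lower.

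Eif2, the carrier of the initiator tRNA, summed to 491, 587 and 535 CPM over its 4 members at 7 dpi and to 408, 369 and 233 CPM at 3 dpi. Its alpha subunit, the target of the stress kinases, has 2 IDs under the symbol EIF2S1. ENSDARG00000005827 had 50, 15.7, 15.5, 43.2 and 59.8 CPM in the injury-side sections at 3 dpi, against 0 to 39.8 CPM on the remote side, and was 3.16-fold higher (1.31 to 6.85) on 9 counts against 29. At 7 dpi it was 1.8-fold higher (1.19 to 2.66). The other, ENSDARG00000052178, was 1.75-fold higher (0.756 to 3.6) at 7 dpi and 1.85-fold lower (0.825 to 5.15) at 3 dpi. EIF2S2, the beta subunit, was 1.51-fold lower (1.03 to 2.28) on the injury side at 7 dpi and 2.31-fold higher (1.67 to 3.16) at 3 dpi. EIF2S3B, a gamma subunit, was 1.4-fold lower (0.962 to 2.12) at 7 dpi and 1.65-fold higher (1.17 to 2.29) at 3 dpi. Eif2b, which recycles Eif2 by exchanging its nucleotide, had 2 members with 73 and 50 counts at 7 dpi, EIF2B2 and EIF2B4, too few to place: EIF2B4 had 1 count on the injury side there and was 2.41-fold lower (0.392 to 99.4).

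Eif3, the large scaffold on the small subunit, had 11 members. At 7 dpi 1 of 10 measured ones was higher by 2-fold or more toward the injury and 0 were lower, where 15.4% and 31.1% of all genes were. At 3 dpi 3 of 11 were higher and 0 were lower, where 33.8% and 15.8% of all genes were. The one at 7 dpi was EIF3A, the largest subunit of the scaffold, with 167, 90.4, 125, 103 and 37.9 CPM in the injury-side sections, 19.8 to 99.4 CPM in the middle ones and 12.6 to 46.4 CPM in the remote-side ones. All but 1 of its injury-side sections lay above the whole remote-side range, and the level was 3.65-fold higher (2.16 to 6). At 3 dpi EIF3A had 200, 220, 108, 324 and 99.6 CPM on the injury side, against 0 to 158 CPM on the remote side, and was 2.74-fold higher (1.96 to 3.77). EIF3A stayed above 0 under every alternative run in both hearts, with log2 differences of 1.03 to 1.92 at 7 dpi and 0.52 to 1.45 at 3 dpi. EIF3F, a further subunit, had 1000 to 1050 CPM in the 5 injury-side sections at 7 dpi, against 419 to 1320 CPM on the remote side. EIF3G, an RNA-binding subunit, was 1.79-fold higher (1.63 to 1.96) on the injury side at 7 dpi and 1.83-fold (1.46 to 2.29) at 3 dpi.

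The cap-binding machinery held the member of highest 3 dpi difference. EIF4G1, the scaffold that joins cap and ribosome, had 23.9, 0, 125, 0 and 75.8 CPM on the injury side at 7 dpi, against 51.6 to 252 CPM on the remote side, and was 1.51-fold lower (0.862 to 2.89). It had 75.1, 94.1, 31, 130 and 99.6 CPM in the injury-side sections at 3 dpi, 18.6 to 98.8 CPM in the middle ones and 0 to 51.1 CPM in the remote-side ones, and was 4.66-fold higher (2.68 to 7.88). Only section 8 of the injury side lay inside the remote-side range at 3 dpi. With a section minimum of 5% the 7 dpi log2 difference of -0.59 turned to 0.94, and the 3 dpi one of 2.16 came to 0.55. EIF4G2, a relative that lacks the Eif4e-binding site, has 2 IDs. ENSDARG00000020377 was 1.91-fold higher (1.04 to 3.29) at 7 dpi and 3.24-fold higher (1.64 to 6.02) at 3 dpi, and ENSDARG00000057167 was 0.943-fold (0.615 to 1.39) at 7 dpi and 2.01-fold (1.12 to 3.41) at 3 dpi. Summed, the 3 Eif4g members were 0.988-fold (0.738 to 1.3) at 7 dpi and 3.03-fold (2.19 to 4.14) at 3 dpi.

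The helicase is encoded by 2 members. The main one, eif4a1b, had 326, 262 and 234 CPM by domain at 7 dpi and 400, 509 and 446 CPM at 3 dpi. EIF4A2, a second form of it, had 0 counts in all 5 injury-side sections at 3 dpi and 0 to 62 CPM on the remote side (median 17.6), 0 counts against 48. With the same floor its injury-side level was 1.57-fold lower, and the exact interval of the counts starts at 1.23-fold. Its fitted log2 difference of -4.23 is set by the pseudocount, and at 7 dpi it had 22 counts, under the minimum. The helicase cofactor EIF4H was 1.51-fold lower (0.709 to 3.86) at 7 dpi and 2.68-fold higher (1.64 to 4.25) at 3 dpi.

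Among cap-binding proteins, EIF4E3 was the most abundant, with 125, 156 and 133 CPM by domain at 7 dpi and 106, 87.8 and 83.5 CPM at 3 dpi. The gene eif4e1c, a cap-binding relative that zebrafish heart regeneration is known to need, had 87.5 CPM in 1 injury-side section and 0 in the other 4 at 7 dpi, 0 to 435 CPM in the middle (median 96.8) and 41.5 to 83.9 CPM on the remote side. At 3 dpi it had 25, 78.4, 31, 0 and 19.9 CPM on the injury side and 0 to 51.3 CPM on the remote side. It was 1.77-fold lower (0.832 to 4.5) at 7 dpi and 2.29-fold higher (0.977 to 4.79) at 3 dpi, and both intervals hold 1. EIF4E (ENSDARG00000077012), the classical cap-binding factor, was 3.6-fold higher (2.04 to 6.12) on the injury side at 7 dpi, but 407 CPM lay in section 1 and 0, 37.5, 0 and 0 CPM in the others. Without section 1, its section of most counts on the injury side, the log2 difference of 1.81 became -0.53. The relative eif4eb had 1 count on the injury side at 7 dpi and was 3.78-fold lower (0.636 to 153).

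The Eif4e-binding proteins, brakes on cap-dependent initiation, differed among themselves. The gene eif4ebp1 had 23.9, 0, 12.5, 0 and 0 CPM in the injury-side sections at 7 dpi, against 12 to 135 CPM on the remote side (median 51.6), and 50, 15.7, 93, 64.8 and 19.9 CPM at 3 dpi, against 44.2 to 155 CPM on the remote side (median 105). It was 5.19-fold lower (1.4 to 43.5) on 2 counts at 7 dpi and 2.11-fold lower (1.21 to 4.01) at 3 dpi. EIF4EBP2 was near level, 1.07-fold (0.847 to 1.35) at 7 dpi and 1.47-fold (1.03 to 2.07) at 3 dpi. The share of eif4ebp1 in the counts of both, which no scaling moves, was 2.33% (0.283 to 8.15) on the injury side and 11.7% (9.64 to 14.1) on the remote side at 7 dpi, and 25% (14 to 38.9) on the injury side and 50.9% (46.6 to 55.2) on the remote side at 3 dpi. Across sections eif4ebp1 followed the contractile sum with a rho of 0.69 at 7 dpi and 0.57 at 3 dpi, second to EEF2 in each heart. The part of muscle content in this was not tested. Under a section minimum of 5% and one of 40%, the 7 dpi difference of -2.27 came to -0.54 and -0.85, and under the first the 3 dpi one of -1.06 came to -0.91. EIF4EBP3 (ENSDARG00000041607) had 0, 814, 0, 34.2 and 152 CPM on the injury side at 7 dpi, so that its log2 difference of 1.62 became -0.37 without section 2, its section of most counts on that side. At 3 dpi it had 39.9 to 150 CPM on the injury side, against 66.4 to 255 CPM on the remote side.

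The late factors were read with few counts at 7 dpi. EIF5, which makes Eif2 hydrolyse its GTP at the start codon, was 1.78-fold lower (1.06 to 3.23) on the injury side at 7 dpi and 2.22-fold higher (1.56 to 3.1) at 3 dpi. Its 7 dpi log2 difference of -0.83 turned to 0.37 and 0.41 with section minimums of 5% and 40% and to 0.22 with equal domains. Its partner eif5b, which joins the ribosomal subunits, was 1.24-fold higher (0.735 to 1.98) at 7 dpi and 2.17-fold higher (1.35 to 3.37) at 3 dpi. EIF6, which keeps free large subunits from joining small ones, had 23.9, 0, 12.5, 0 and 37.9 CPM on the injury side at 7 dpi, against 27.7 to 98.4 CPM on the remote side, and 175, 125, 170, 43.2 and 159 CPM at 3 dpi, against 19.2 to 155 CPM on the remote side. It was 3.01-fold lower (0.996 to 14.9) on 3 counts at 7 dpi and 2.21-fold higher (1.49 to 3.18) at 3 dpi. The 7 dpi EIF6 log2 difference of -1.53 came to 0.24 with a section minimum of 40% and to 0.19 with equal domains.

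The Eif5a proteins help ribosomes past stretches that join slowly, such as runs of proline. The main gene, eif5a, had 813, 678, 2000, 2640 and 1930 CPM on the injury side at 7 dpi, against 1070 to 2540 CPM on the remote side, and 1580, 1220, 1380, 1150 and 1650 CPM at 3 dpi, against 916 to 1540 CPM on the remote side. Neither heart separated the sides. EIF5A2, a second Eif5a that in adult mammals is made in few tissues, had 311, 45.2, 262, 240 and 265 CPM at 7 dpi, against 86.1 to 440 CPM on the remote side, and 400, 314, 356, 43.2 and 99.6 CPM at 3 dpi, against 8.85 to 197 CPM on the remote side. At 3 dpi 3 of the 5 injury-side sections lay above the whole remote-side range, and the level was 3.84-fold higher (2.85 to 5.12). Its share of both Eif5a counts was 12.7% (9.54 to 16.4) on the injury side, 12.7% (11.2 to 14.3) in the middle sections and 9.37% (8.49 to 10.3) in the remote-side ones at 7 dpi, and 15.3% (12 to 19), 9.31% (7.85 to 10.9) and 5.38% (4.63 to 6.21) at 3 dpi. At 3 dpi the sum of the leukocyte genes was 7700 to 13100 CPM in the injury-side sections, 2250 to 6440 in the middle ones and 764 to 1940 in the remote-side ones, and its part in the EIF5A2 result was not tested.

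**Figure D3:**
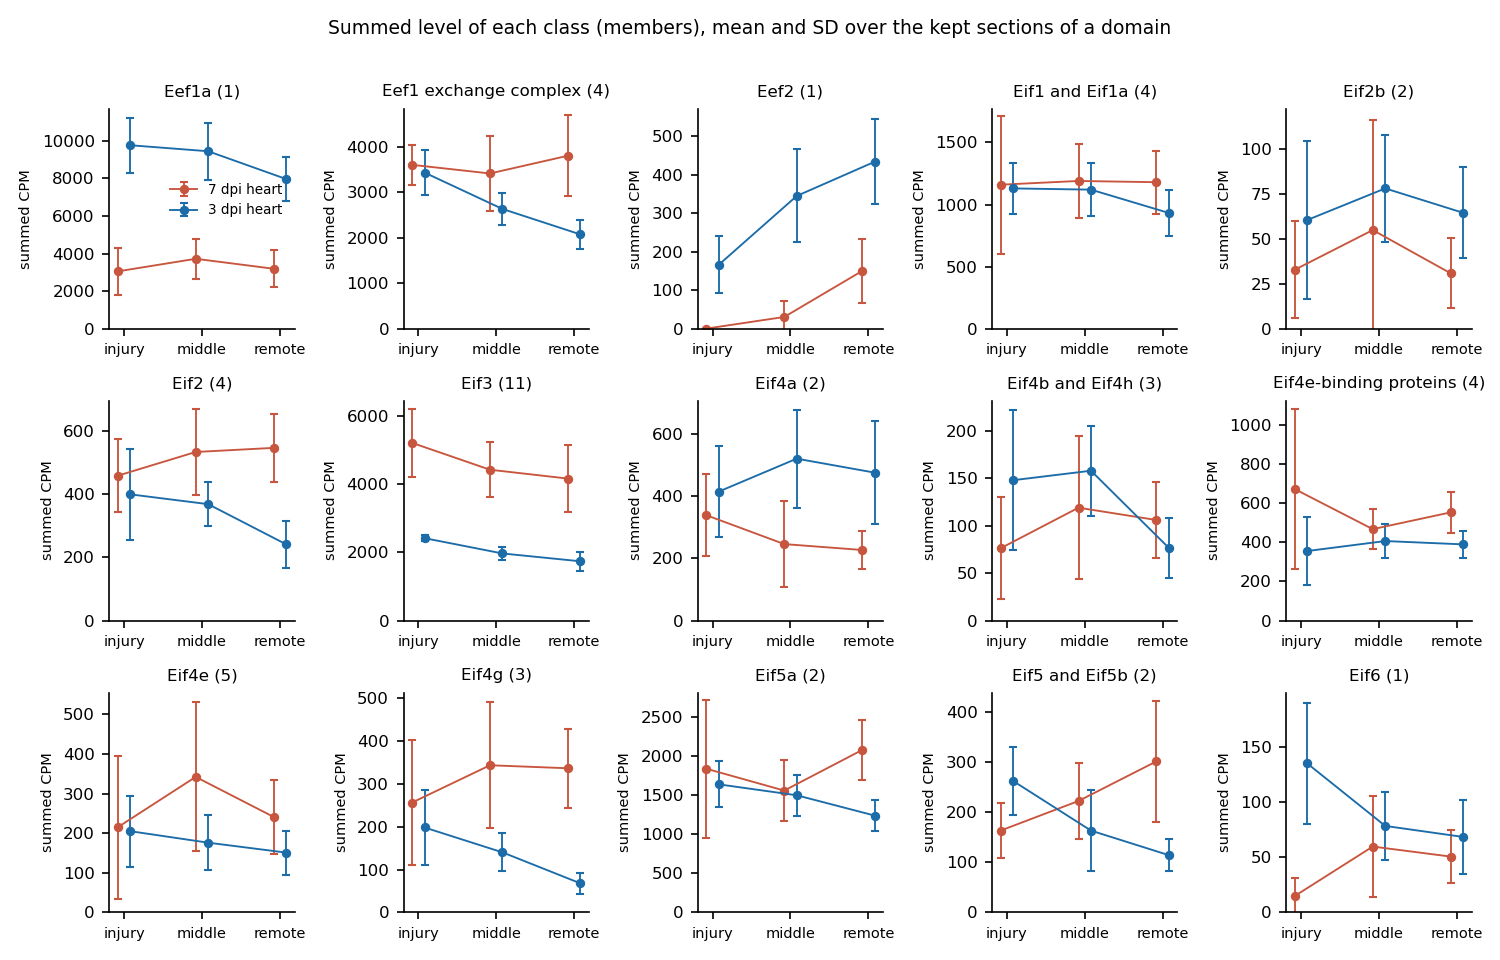
Summed level of the members of each factor class except EEF2K (CPM, linear axes from 0) in the injury-side, middle and remote-side domains of the 7 dpi heart (left points, red) and the 3 dpi heart (right points, blue), as mean and SD over the kept sections of the domain, with the number of members in each title. The Eef2 class, which holds EEF2 alone, is higher toward the remote side in both hearts. In CPM the Eif4g, Eif2 and exchange complex sums are lower toward it at 3 dpi and not at 7 dpi, while EEF1G, EEF1B2 and EIF2S3B have the other sign at 3 dpi under median-of-ratios scaling.

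**Figure D4:**
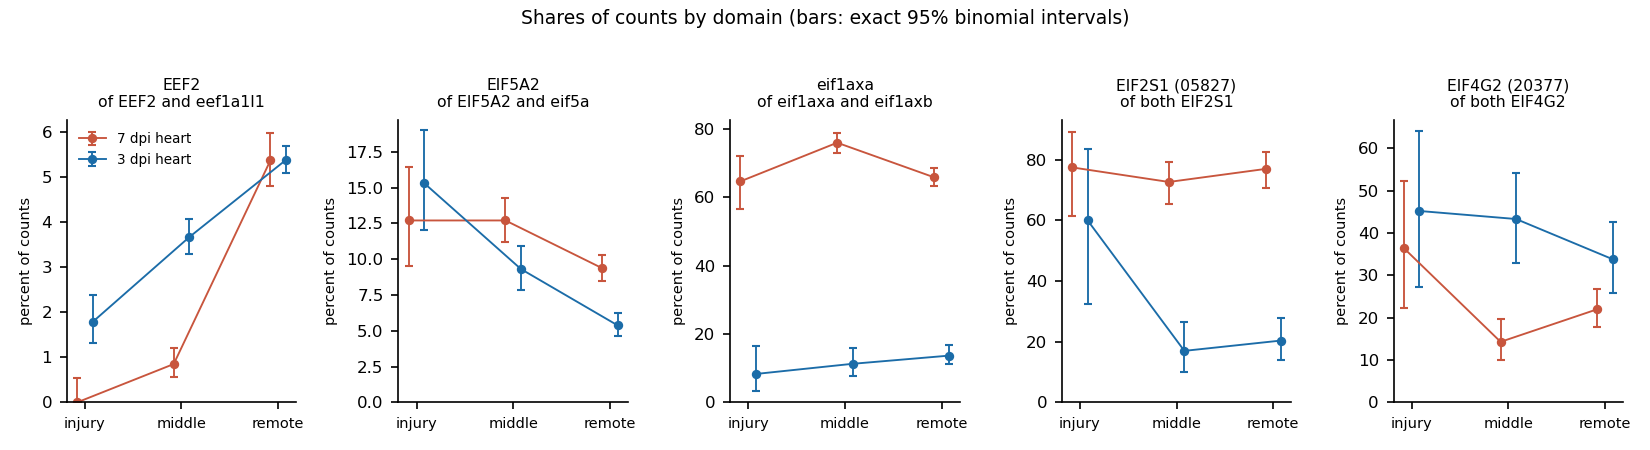
Share of counts (percent, axes from 0) of 1 gene within a pair, by domain, in the 7 dpi heart (left points, red) and the 3 dpi heart (right points, blue), with exact 95% binomial intervals. The EEF2 share is higher toward the remote side in both hearts, and the eif1axa share is 64.7% or more in every domain at 7 dpi and 13.7% or less at 3 dpi.

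Between the hearts, the counts of all members together were 1.69% of kept counts at both days, but the factors that made up this part differed. The totals hold 2 unnamed IDs that differ, with 20.4% and 0.0231% of all counts at 3 dpi and 3.68% and 6.44% at 7 dpi. The equal share depends on them. The hearts also differed in their marker genes, as contractile genes summed to 26900 CPM at 7 dpi and 66600 CPM at 3 dpi, and matrix genes to 10600 and 3120 CPM, so day, animal and tissue content cannot be told apart. Of 50 members, 16 (32%) were at least 2-fold higher at 7 dpi, where 28.9% of all genes were, and 7 (14%) were lower, where 21% were. The rule of 50 counts in either heart let some members in only through the heart where they were high. Among the lower ones, EIF3H, eif4ebp3 (ENSDARG00000054916), EEF2K and EIF4E2 had 14, 14, 26 and 30 counts at 7 dpi. Among the higher ones, EIF4E had 41 counts at 3 dpi. Their folds can be enlarged by that rule, which also applied to all genes. The median was 0.35, against 0.14 for all genes and 0.21 for genes of like level.

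The factors eif1axa and EIF3G stood higher in every kept section at 7 dpi than in any at 3 dpi, a pattern that 0.714% of all genes showed, and none stood lower in every section, which 0.102% of all genes did. The first was eif1axa, one of 2 genes for the scanning factor Eif1a. It had 96 to 792 CPM in the 24 sections at 7 dpi (median 521) and 0 to 86.2 CPM in the 35 sections at 3 dpi (median 30.4), a 15.9-fold difference (13.2 to 19.4). Its partner eif1axb had 211 CPM at 7 dpi and 209 CPM at 3 dpi. The share of eif1axa in the counts of the pair was therefore 69.4% (67.5 to 71.4) at 7 dpi and 12.6% (10.5 to 14.9) at 3 dpi, with sections at 40% to 92.3% and at 0% to 30.3%. The second was EIF3G, with 901 to 3240 CPM at 7 dpi (median 1950) and 40.7 to 598 CPM at 3 dpi (median 207), a 7.87-fold difference (7.32 to 8.47). EIF3G was 63.6% (62.6 to 64.6) of EIF3G and EIF3F counts at 7 dpi and 32.4% (30.6 to 34.2) at 3 dpi.

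Because these genes were picked for being higher in every kept section at 7 dpi, the direction in each domain was fixed by that choice. The domain levels give only the size of both differences. In the injury-side, middle and remote-side domains eif1axa had 506, 551 and 436 CPM at 7 dpi and 26.4, 30.3 and 30.4 CPM at 3 dpi. EIF3G had 2750, 1840 and 1540 CPM at 7 dpi and 359, 243 and 196 CPM at 3 dpi. Across the 7 dpi sections their rho with the contractile sum was -0.10 for eif1axa and -0.40 for EIF3G.

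The 2 IDs of EIF2S1 also differed in their shares, as ENSDARG00000005827 held 75.3% (70.9 to 79.3) of the counts of both IDs at 7 dpi and 21.6% (16.6 to 27.3) at 3 dpi. Its level was 7.4-fold higher (5.52 to 10.1) at 7 dpi, and that of ENSDARG00000052178 was 1.49-fold lower (1.17 to 1.91). Both IDs of EIF4G2 were higher at 7 dpi, ENSDARG00000057167 by 3.95-fold (3.29 to 4.77) and ENSDARG00000020377 by 1.6-fold (1.22 to 2.11). Other members at least 3-fold higher at 7 dpi were eif4e1c with 4.03-fold (3.09 to 5.33), EIF4G1 with 3.79-fold (3.08 to 4.69), EIF4EBP2 with 3.58-fold (3.21 to 4.01) and EIF4E with 3.44-fold (2.39 to 5.04). With eif4ebp1 at 1.97-fold lower (1.63 to 2.4), the share of eif4ebp1 in eif4ebp1 and EIF4EBP2 counts was 11% (9.39 to 12.7) at 7 dpi and 46.6% (43.1 to 50.1) at 3 dpi.

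On the lower side, EIF3H, a further Eif3 subunit, had 14 counts at 7 dpi, 78.6% of them in section 34, and 163 at 3 dpi, 9.5-fold lower (5.5 to 17.8). The 2 Eif4e-binding genes under EIF4EBP3 were 6.88-fold lower (3.94 to 13; ENSDARG00000054916) and 3.43-fold lower (2.86 to 4.14; ENSDARG00000041607). EEF2 was 3.78-fold lower (3.36 to 4.26), with a log2 difference of -1.91 that became -2.87 without section 34. The most abundant member, eef1a1l1, had 1740 to 6480 CPM at 7 dpi (median 3550) and 6320 to 11600 CPM at 3 dpi (median 8740), 2.74-fold lower (2.68 to 2.8) with sections that touch in a narrow band. EEF1G was higher, with 1810 to 4520 CPM at 7 dpi and 850 to 2910 CPM at 3 dpi, 2.03-fold higher (1.97 to 2.1). EEF1G therefore made up 51% (50.3 to 51.7) of EEF1G and eef1a1l1 counts at 7 dpi and 15.8% (15.4 to 16.1) at 3 dpi, where its highest section reached 22.1% and the lowest at 7 dpi was 32.3%. Without the 2 unnamed IDs of highest count, one of which holds 20.4% of the 3 dpi counts and 3.68% of the 7 dpi ones, 12 members were lower, and EEF1G stood below 2-fold, with a log2 difference of 0.84, as it did under median-of-ratios scaling, with 0.82.

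**Figure D5:**
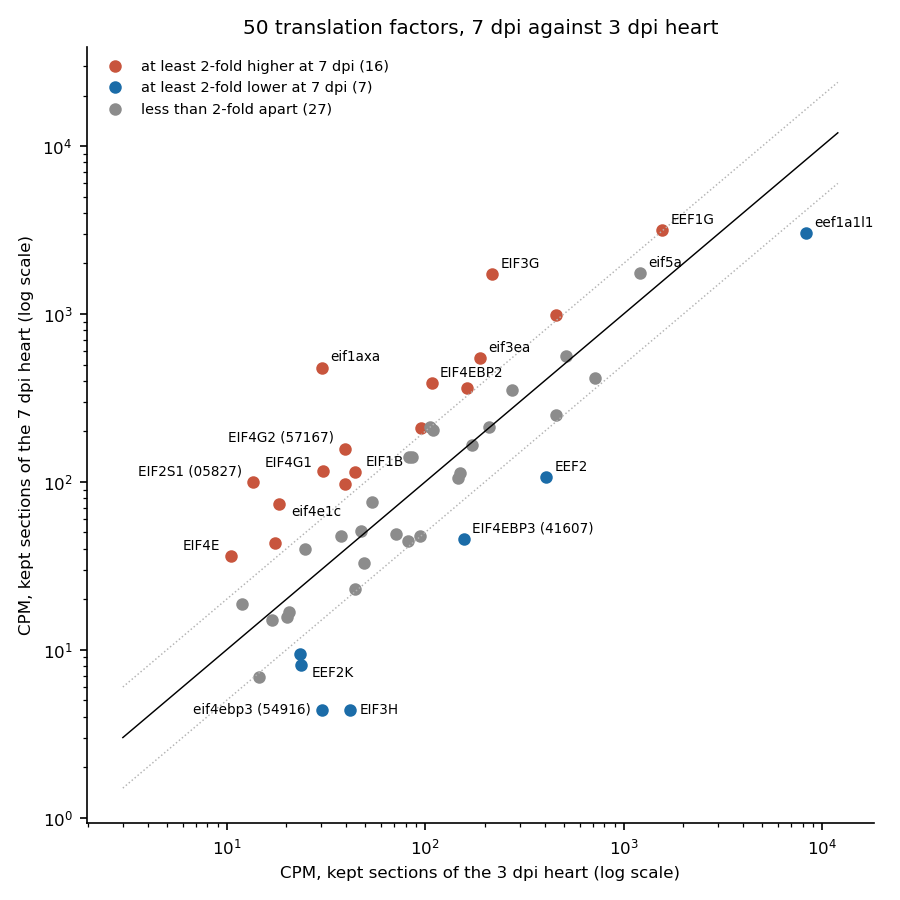
Level of each of the 50 members in the kept sections of the 7 dpi heart (vertical, CPM) against that in the 3 dpi heart (horizontal, CPM), both on log scales, with the line of equality and the 2-fold limits (dotted). The members eif1axa and EIF3G lie farthest above the line, at 480 and 1720 CPM in the 7 dpi heart, where the 3 dpi heart had 30.1 and 218 CPM, and eef1a1l1 lies below it.

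Other genes of the pathway were read in the same way from lists chosen with earlier results of these data known. For each count below, 15.4% of all genes were higher and 31.1% lower by 2-fold or more toward the injury at 7 dpi, and 33.8% were higher and 15.8% lower at 3 dpi. Under median-of-ratios scaling these shares were 11.1% and 36.1% at 7 dpi and 10.8% and 30.7% at 3 dpi. Termination and recycling factors, which free the finished protein and the ribosome, were higher by 2-fold or more toward the injury in 1 of 3 at 7 dpi and in 3 of 3 at 3 dpi, with none lower. Under the other scaling 0 were higher at 7 dpi, and 1, PELO, at 3 dpi. PELO, which rescues stalled ribosomes, was 2.16-fold higher (1.24 to 3.58) at 7 dpi and 4.41-fold (2.11 to 8.71) at 3 dpi. The release factor ETF1 was 1.56-fold lower (0.827 to 3.33) at 7 dpi and 2.14-fold higher (1.32 to 3.35) at 3 dpi, and the recycling factor ABCE1 was 1.34-fold lower (0.654 to 3.18) at 7 dpi and 2.31-fold higher (1.23 to 4.09) at 3 dpi. Cytosolic tRNA synthetases and their scaffolds, which charge tRNAs, were higher in 0 of 18 and lower in 2 at 7 dpi (median -0.51), and higher in 7 of 11 and lower in 0 at 3 dpi (median 1.21). Under the other scaling 0 were higher and 5 lower at 7 dpi, and 2 were higher and 0 lower at 3 dpi (median 0.37). TARS1, which charges threonine tRNA, was 1.72-fold lower (0.964 to 3.39) at 7 dpi and 3.84-fold higher (2.17 to 6.53) at 3 dpi. GARS1, which charges glycine tRNA, was 1.08-fold lower (0.612 to 2.08) at 7 dpi and 2.94-fold higher (1.74 to 4.79) at 3 dpi. The scaffolds AIMP1 and AIMP2 had log2 differences of -0.44 and -0.49 at 7 dpi and of 0.61 and 0.82 at 3 dpi.

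Of mRNA-binding and cap regulators, 0 of 12 were higher and 2 lower at 7 dpi, and 7 of 16 were higher and 3 lower at 3 dpi, or 1 and 5 under the other scaling. The poly(A)-binding protein gene pabpc1a had 2520, 3620 and 3360 CPM by domain at 7 dpi and 1720, 1380 and 1130 CPM at 3 dpi, while pabpc1b had 266, 191 and 220 CPM at 7 dpi and 325, 622 and 658 CPM at 3 dpi. In the list of Eif2 kinases and the response to them, no Eif2 kinase reached the count minimum in either heart, so only response genes were read. Of these, 0 of 4 were higher and 2 lower at 7 dpi, and 1 of 5 was higher and 1 lower at 3 dpi, or 0 and 1 under the other scaling. CHAC1, a glutathione-degrading target of that response, had 5.01, 57.6 and 117 CPM by domain at 7 dpi and 219, 220 and 135 CPM at 3 dpi, a 23.4-fold lower level (4.16 to 928) on the injury side at 7 dpi on 1 count and a 1.62-fold higher one (1.21 to 2.14) at 3 dpi. DDIT3, a transcription factor of that response, was near level, with log2 differences of -0.34 at 7 dpi and 0.04 at 3 dpi, and atf4b, another, had -1.25 and 0.71. Of mTOR pathway genes, 2 of 7 were higher and 3 lower at 7 dpi, and 2 of 6 were higher and 0 lower at 3 dpi, or 1 and 2 under the other scaling. DEPTOR, an inhibitor of mTOR, was 3.01-fold higher (1.43 to 5.88) at 7 dpi and 3.86-fold higher (1.74 to 7.96) at 3 dpi. RPS6KA3 (ENSDARG00000057927), a ribosomal protein S6 kinase, had log2 differences of -2.82 on 1 injury-side count at 7 dpi and -0.73 at 3 dpi, while a second ID of that symbol, ENSDARG00000035556, was 2.62-fold higher (1.21 to 5.2) at 7 dpi and under the minimum at 3 dpi. The mTOR inhibitor akt1s1 had log2 differences of -1.77 at 7 dpi and -0.22 at 3 dpi. The 3 genes lower at 7 dpi, RPS6KA3 (ENSDARG00000057927), akt1s1 and MTOR, each had 1 count on the injury side (5.01 CPM). The exact intervals of akt1s1, 3.88-fold lower (0.655 to 157), and MTOR, 3.25-fold lower (0.542 to 133), hold 1. Mitochondrial translation factors had 0 measured genes at 7 dpi and 2 at 3 dpi, mtif3 and TSFM, at 1.83-fold (0.689 to 4.13) and 1.64-fold (0.498 to 4.26).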

How the data were processed

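The authors deposited 1 table of whole-number read counts per heart, with a line per Ensembl gene ID and a column per section, not normalized. The columns were entered as another unit in the automatic unit test, because their names are bare section numbers. The aligner was BWA 0.6.2, per the submitters' processing notes. The build, annotation and any molecular identifiers are not given in the sources used here. Sections with a total under 20% of the heart's 75th percentile (19 of 78 in all) were left out. Kept sections were divided by least squares into 3 runs of at least 4 sections, on log2(CPM + 10) of the 2000 genes of highest mean that are neither members nor in a list. Counts were summed per domain and given as CPM, with a pseudocount of 1 for log2, and genes of like level came from 20 bins. Spike-in entries stayed out of totals. Columns of other samples numbered 0.

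Per heart, genes with at least 50 counts were used (4608 at 7 dpi, 4784 at 3 dpi; 5883 between hearts). No test was possible with 1 heart per day. The genes named are every Eef1a and Eef2 gene, the 10 members of highest CPM, the 5 with the largest difference in each direction of each comparison, the highest of each class and the 2 highest of each list; others named were chosen after their values were seen. The members and lists were chosen with earlier results of these data known. The planned muscle-type share could not be used, since eef1a2 was at 1 count, and EEF2 with eef1a1l1 replaced it. The other shares within a pair, such as EEF1G with eef1a1l1 and EIF3G with EIF3F, were not planned. Each restates the levels of its 2 genes and is no separate result. The division was run on simulated noise with planted sharp steps, and the intervals on simulated Poisson counts. Neither simulation held reads that copy the same molecule or gradual change along a heart, so neither shows how the division and intervals perform there. Python 3.11.15, numpy 2.4.6, pandas 2.3.3 and scipy 1.17.1 were used.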

Additional observations from a re-analysis of the deposited data

Results flagged for a closer look

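EIF6, the factor that keeps free large ribosomal subunits apart, had opposite directions in the hearts. Its log2 difference, injury side over remote side, was -1.53 at 7 dpi and 1.13 at 3 dpi. The difference between the hearts was not tested, and the 7 dpi value rests on 3 counts on the injury side.

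EIF2B4, a subunit of the Eif2 exchange factor, had 30 of its 84 counts at 7 dpi (35.7%) in section 29, which lies on the remote side and was left out because its total was 11550 counts. The domain levels leave these counts out, and values with a section minimum of 5% hold them.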

How the results depend on the processing

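No paired analysis was possible because there was 1 heart per day and the shared number 1 in the titles pairs nothing. For each other section minimum the division into domains was run again, so the domain limits can differ from those given above. Values under a section minimum of 5% or 40% therefore mix the sections kept with the limits of the domains. Members higher by 2-fold or more toward the injury at 3 dpi, 16 of 48 as reported, numbered 2 with median-of-ratios scaling, where 10.8% of all genes were higher. They numbered 2 relative to genes of like level and 8 of 27 with a minimum of 200 counts. With domains of equal section number there were 9, and 9 without the 2 unnamed IDs of highest count. Without each gene's section of most counts in its higher domain there were 10. Those lower, 4 of 48, numbered 9 with median-of-ratios scaling, where 30.7% of all genes were lower. They numbered 2 of 27 with a minimum of 200 counts and 1 with equal domains. A minimum of 200 counts leaves fewer members in every comparison. Shares of all genes were not counted under the alternatives other than median-of-ratios scaling, so those counts of members have no background. The all-gene median at 3 dpi, 0.54 as reported, moved as well. It was 0.46 with equal domains, 0.32 without the 2 unnamed IDs and 0.11 without each gene's section of most counts in its higher domain. The 3 dpi median of 0.53 turned to -0.33 with median-of-ratios scaling and to -0.2 relative to genes of like level. The all-gene median was then -0.31 with the first and 0 with the second. At 7 dpi the higher members, 3 of 44, numbered 0 of 30 with a minimum of 200 counts. They numbered 1 with a section minimum of 5% or without each gene's section of most counts in its higher domain. The 6 lower ones numbered 10 of 52 with a minimum of 20 counts and 1 of 30 with a minimum of 200 counts. They numbered 1 with a section minimum of 5% or of 40%. With a pseudocount of 10 CPM, with equal domains or relative to genes of like level they numbered 3. They also numbered 3 with levels raised to at least 3 counts, an alternative added after the data were seen. The 7 dpi median of -0.12 turned to 0.09 with a section minimum of 5%, 0.05 with one of 40% and 0.03 with equal domains. The all-gene median at 7 dpi, -0.2 as reported, was then 0.32, 0.15 and -0.03. The members thus lay above the all-gene median as reported and with equal domains, and below it with both section minimums. Between the hearts, 7 lower members numbered 12 with median-of-ratios scaling or without the 2 unnamed IDs, 11 relative to genes of like level and 3 with a minimum of 200 counts, while the 16 higher ones stayed between 12 and 17. The injury-side minus remote-side EEF2 share, in percentage points and added after the data were seen, was -3.59 at 3 dpi, -4.59 with a section minimum of 5% and -2.3 with equal domains, and -5.36 at 7 dpi, -6.56 with a section minimum of 40% and -2.59 without section 34. Of the named members past 2-fold, EIF2B4, EIF4EBP3, EIF4E, eif4eb and EIF6 changed direction at 7 dpi. EIF2B4 came to 0.98 with a section minimum of 5%, 1.04 with equal domains, 2.53 relative to genes of like level and 0.31 with levels raised to 3 counts. Genes of like level had a median of -3.65 for EIF2B4 and of -1.8 for eif4eb. A floor of 3 counts on the injury side lies above the remote-side level of EIF2B4, 12.1 CPM, so the floor itself set that sign. EIF4EBP3 (ENSDARG00000041607) came to -0.16 with a section minimum of 40% and -0.37 without section 2, its section of most counts in its higher domain, EIF4E to -0.53 without section 1, its own such section, eif4eb to 0.07 relative to genes of like level, and EIF6 to 0.24 with a section minimum of 40% and 0.19 with equal domains. The cause was not tested. With 199560 counts over the injury side at 7 dpi and 264710 at 3 dpi, 1 count there is about 5.01 and 3.78 CPM, so members of low level cannot be placed.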
